A study of Homo sapiens with 9 samples.

Results

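A set of 10 genes that RAS to ERK signalling switches on, most of which restrain it in turn, was followed across 3 glioblastoma cell lines of one origin. They were taken by symbol, with earlier results of these data known: the Sprouty genes SPRY1, SPRY2 and SPRY4, the Sprouty-related genes SPRED1 and SPRED2, the MAP kinase phosphatases DUSP4, DUSP5 and DUSP6, and the PEA3-group ETS factors ETV4 and ETV5. All 10 of 10 were found among the 60606 genes of the deposited table, and all 10 were among the 22909 genes tested, those with a mean TPM above 1 (TPM are transcripts of a gene per 1000000 transcripts in its library, with gene length divided out). SPRY1 was the only member with a group mean under 1 TPM, in U87DIFF.

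RNA of each line was sequenced in 3 libraries, 9 in all. U87WT is the wild-type U87 line, an established human glioblastoma line, kept in DMEM with fetal bovine serum. U87GSC cells, labelled radioresistant, are stem cells derived from U87 and irradiated in repeated cycles to screen for radioresistance. They were kept without serum in DMEM/F12 with B27, EGF and bFGF (the last 2 are ligands of EGFR and of FGF receptors, and both signal through ERK). U87DIFF cells, also labelled radioresistant, are the progeny of U87GSC, differentiated in medium with serum and grown from selected clonal communities. U87GSC therefore differs from U87WT in medium, stem cell state, irradiation and selection for radioresistance at once, and these cannot be told apart. U87DIFF shares its DMEM and serum with U87WT. It differs from U87WT by irradiation, selection for radioresistance, passage through the stem cell state and clonal selection, which likewise cannot be told apart. Serum, withdrawal of both growth factors, differentiation and clonal selection cannot be told apart in the comparison of U87DIFF with U87GSC. Unirradiated stem cells were not analysed here. The study describes its data in general as from biological replicates, but nothing in the sample records says that the libraries of a line came from separate cultures, so the p-values below may measure only the spread between these libraries, which may be technical.

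As background, ERK is the last kinase of a cascade in which a growth factor receptor activates RAS, RAF and MEK in turn. Active ERK induces its own inhibitors. Sprouty and SPRED proteins act upstream, at the level of the receptor and RAS, and SPRED1 brings neurofibromin to RAS at the membrane. DUSP6 removes phosphate from ERK in the cytoplasm, and DUSP4 and DUSP5 do so in the nucleus. ETV4 and ETV5 are transcription factors, and both their genes are kept off by the repressor Capicua (CIC) until ERK inactivates it. The mRNAs of these genes are widely used as a readout of pathway output in tumour cells; no protein or phosphorylation was measured in the data used here.

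DUSP6, and SPRY2 as the member closest to it in profile over the 9 libraries, are shown by sequence. Of the 10 members, 6 had at least 1 promoter window in the set of RefSeq windows used here (10 windows in all). A window ran from 250 bases before to 50 bases after a transcription start (GRCh38.p14). DUSP4, DUSP5, ETV4 and ETV5 had no window in this set, so their promoters were not searched. Around the start of DUSP6 the letters TCAATGGA, one of the octamers that CIC is known to bind, stood in 2 copies, both on the strand opposite to the gene, so that the gene strand reads TCCATTGA. The first copy began 24 bases before the start (-24) and the second at base 2 after it (chr12:89352512-89352531 and chr12:89352487-89352506, both written on the minus strand, with the octamer in capitals):
DUSP6 upstream copy: aatgtaTCCATTGAgacgct
DUSP6 downstream copy: tttgtaTCCATTGAggagct

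The 4 octamers searched on both strands were TGAATGAA, TGAATGGA, TCAATGAA and TCAATGGA, and these letters were picked after the windows had been seen. At least 1 of them stood in 3.77% of 35116 RefSeq windows of the same length, and TCAATGGA alone in 0.51%. Windows with 2 or more matches to any of the 4 octamers made up 0.327% (115 windows), the DUSP6 window among them. Counting TCAATGGA alone, the octamer matched in DUSP6, the share was 0.00285%, which is the DUSP6 window itself. No other member window held an octamer. The letters TGANTCA, a loose form of the AP-1 site with any base at N, stood in 7.71% of all windows. In the window of 1 of the 2 starts of SPRED2 they matched at -6 (TGACTCA) and at 35 (TGAATCA, not the AP-1 consensus). The ETS letters CCGGAAG (10.3%) matched at -67 in 1 of the 2 windows of SPRY1, and the CRE letters TGACGTCA (1.85%) matched in none of the 10. For SPRY2, the 250 bases before its most upstream start (chr13:80341127-80341376, minus strand) held none of the motifs searched:
SPRY2 upstream region: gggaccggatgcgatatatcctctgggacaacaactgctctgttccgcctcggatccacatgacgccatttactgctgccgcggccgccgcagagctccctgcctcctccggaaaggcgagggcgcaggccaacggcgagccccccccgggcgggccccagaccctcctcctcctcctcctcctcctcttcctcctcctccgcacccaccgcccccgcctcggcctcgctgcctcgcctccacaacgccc
A match is a description of letters in a window and not a site shown to be bound.

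Before the members are described, the labels were compared with marker genes. SOX2 was at 0.809 to 0.994 TPM in U87GSC against at most 0.185 in the other libraries, and FABP7 was at 4.38 to 5.82 TPM in U87GSC, 2.53 to 3.27 in U87DIFF and 0.546 to 0.986 in U87WT. PROM1 (CD133), like SOX2, stayed under 1 TPM in every library. It was at 0.379 to 0.596 TPM in U87GSC, 0.121 to 0.238 in U87WT and at most 0.0366 in U87DIFF. NES was lower in U87GSC (21.7 to 23.3 TPM) than in U87WT (31.1 to 35.5). OLIG2 overlapped between U87GSC (7.65 to 10.6 TPM) and U87WT (6.72 to 8.33). Leukocyte markers summed to at most 2.91 TPM. The endothelial markers PECAM1, VWF and CDH5 summed to 16.4 to 18.9 TPM in U87GSC, mostly VWF, against 2.66 to 5.55 in the other lines, while CDH5 was at 0.465 TPM or less; the part of this in any result was not tested. In bulk RNA, fewer cells with a transcript and less of it per cell cannot be told apart. TPM keeps no read depth, so depth is unknown and no counting interval is given. Library 3 of U87GSC stood apart from its replicates, with a median absolute log2 difference over genes of 0.235 and 0.270 from the other 2, against 0.132 to 0.159 for all other pairs within a line; leaving it out changed no call of a member. The noncoding RNA RN7SL1 held 5.73 to 9.79% of TPM and mitochondrial genes held 25.9 to 31.8%.

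By group mean alone, 6 of the 10 members were highest in U87GSC and 9 lowest in U87DIFF, but the families did not move as one. The share of all genes with such orders was not computed. Some of these steps did not pass the test, among them DUSP5 from U87WT to U87DIFF and SPRED1 from U87GSC to U87DIFF. From U87WT to U87GSC, SPRY2, DUSP5, DUSP6 and ETV4 rose, SPRY4, SPRED1 and ETV5 fell, and SPRY1, SPRED2 and DUSP4 did not pass the test. In U87DIFF, 8 of 10 members were lower than in U87GSC and 8 of 10 were lower than in U87WT, and none was higher in either comparison. A gene passed at an adjusted p under 0.05 (limma on log2(TPM + 1), Benjamini-Hochberg over all genes tested) and was called changed when its log2 fold change was also beyond 1 in either direction. The comparisons share groups, so the values of a member in them are given side by side and are not independent.

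In numbers, 7 of 10 members passed between U87GSC and U87WT against 48.6% of all genes tested, 4 as higher (25.3% of genes) and 3 as lower (23.3%). Of these, 4 were called against 17.1% of genes, 3 as higher (9.52%) and 1 as lower (7.53%), and the ranges of the libraries did not overlap for 8 members against 55.8% of genes. The median log2 fold change of the members was 0.21, beside 0.02 over all genes. Between U87DIFF and U87WT, 8 of 10 passed, all as lower, where 39.4% of genes passed, 20.5% as lower and 18.9% as higher. There 5 members were called, all as lower, against 12.3% of genes (6.36% lower, 5.92% higher), 9 did not overlap against 55.2%, and the median was -0.89 beside -0.04. Between U87DIFF and U87GSC, 8 of 10 passed, all as lower, where 34.8% of genes passed, 19.8% as lower and 15% as higher. There 6 members were called, all as lower, against 8.01% of genes (5.36% lower, 2.66% higher), 8 did not overlap against 46.7%, and the median was -1.05 beside -0.06. Across the 3 comparisons the members' share was therefore least far from the background in U87GSC against U87WT. The order of the group means was U87GSC, U87WT, U87DIFF for 6 members (SPRY1, SPRY2, DUSP4, DUSP5, DUSP6 and ETV4) and U87WT, U87GSC, U87DIFF for 3 (SPRY4, SPRED1 and ETV5). These orders include steps that did not pass the test, and their share over all genes was not computed.

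Among the phosphatases, DUSP6, which acts on ERK in the cytoplasm, had 58.4, 51.6 and 52.6 TPM in the U87WT libraries, 157, 139 and 158 in U87GSC and 27.8, 33.2 and 34.1 in U87DIFF. The 3 ranges did not overlap, and the lowest U87GSC library lay well above the highest U87WT library. The mean was 2.79-fold higher in U87GSC than in U87WT (log2 fold change 1.46, SE 0.0913, adjusted p = 2.83e-06) and 4.77-fold lower in U87DIFF than in U87GSC (-2.22, adjusted p = 1.41e-06). U87DIFF was also below U87WT (-0.76, adjusted p = 0.000215). Of the exon bases of DUSP6 in GENCODE 29, 40.5% lie opposite an antisense gene (ENSG00000274021), and the strand setting of the read counting is not given in the sources used here, so reads of both genes may be mixed. The antisense gene was listed at 2.58 to 3.19 TPM in U87WT, 3.02 to 4.57 in U87GSC and 0.926 to 2.12 in U87DIFF, far below DUSP6 in every library.

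DUSP5, a nuclear phosphatase that is itself selective for ERK, also rose in U87GSC, and its U87DIFF libraries overlapped those of U87WT. Its TPM were 103, 110.3 and 86.2 in U87WT, 219, 207 and 179 in U87GSC and 86.0, 103 and 102 in U87DIFF. The U87GSC libraries stood apart from the other 6, which overlapped. The log2 fold change was 1.01 in U87GSC against U87WT (SE 0.115, adjusted p = 0.000116) and -1.05 in U87DIFF against U87GSC (adjusted p = 0.000218). Both sit on the edge of the fold threshold, and the first fell under it without U87GSC library 1 (0.95), U87GSC library 2 (0.99) or U87WT library 3 (0.91), the second without U87DIFF library 1 (-0.96) or U87GSC library 1 (-0.98), with both still past the test. U87DIFF and U87WT did not differ past the test (-0.04, 95% interval -0.30 to 0.23, adjusted p = 0.829).

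DUSP4, the other nuclear phosphatase, acts on ERK and on other MAP kinases. It had 63.7, 58.4 and 65.8 TPM in U87WT, 62.7, 64.9 and 74.2 in U87GSC and 31.3, 30.4 and 29.4 in U87DIFF. U87WT and U87GSC overlapped and every U87DIFF library was below them. The log2 fold change was 0.10 in U87GSC against U87WT (95% interval -0.07 to 0.27, adjusted p = 0.313), -1.02 in U87DIFF against U87WT (SE 0.075, adjusted p = 1.12e-05) and -1.12 in U87DIFF against U87GSC (adjusted p = 1.38e-05). The call against U87WT fell just under the fold threshold without U87DIFF library 3 or U87WT library 3 (-0.98), still past the test.

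DUSP4 also differed from the genes around it. It lies on chromosome 8 at 29333064 to 29350684 (GRCh38.p14), and in U87GSC against U87WT the median over the 20 tested genes nearest to it (10 on each side) was -0.96 on the log2 scale. All 20 were lower in U87GSC, from -2.83 to -0.22, and DUSP4 at 0.10 was above every one of them. In U87DIFF against U87WT, DUSP4 at -1.02 sat at the median of its neighbours (-1.03), and in U87DIFF against U87GSC it was at -1.12 beside a median of -0.22. For the 9 other members the median of the 20 neighbours lay between -0.28 (ETV5, U87DIFF against U87WT) and 0.36 (DUSP6, U87DIFF against U87WT) in all comparisons. DNA copy number was not measured in the data used here, and its part in the level of DUSP4 was not tested.

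The Sprouty genes split. SPRY2 had 87.1, 71.8 and 80.8 TPM in U87WT, 209, 223 and 210.4 in U87GSC and 38.4, 38.2 and 35.0 in U87DIFF. The lines did not overlap, and the order was that of DUSP6. SPRY2 was 2.68-fold higher in U87GSC than in U87WT (log2 fold change 1.42, SE 0.0753, adjusted p = 1.14e-06), 5.76-fold lower in U87DIFF than in U87GSC (-2.49, adjusted p = 3.90e-07) and lower in U87DIFF than in U87WT (-1.08, adjusted p = 8.33e-06).

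SPRY4, another Sprouty inhibitor, moved the other way in the stem cells. It had 76.0, 65.5 and 71.9 TPM in U87WT, 29.9, 31.8 and 31.4 in U87GSC and 21.5, 21.9 and 21.9 in U87DIFF, again without overlap. SPRY4 was 2.29-fold lower in U87GSC than in U87WT (log2 fold change -1.17, SE 0.0634, adjusted p = 1.27e-06) and 3.27-fold lower in U87DIFF (-1.66, adjusted p = 3.00e-07). U87DIFF lay below U87GSC by a smaller step (-0.49, adjusted p = 0.000499).

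SPRY1 was a minor transcript throughout, with 4.80, 4.47 and 4.25 TPM in U87WT, 5.42, 6.10 and 6.01 in U87GSC and 0.410, 0.551 and 0.730 in U87DIFF. Every U87GSC library lay above every U87WT library, yet the difference did not pass the adjusted test (log2 fold change 0.31, SE 0.125, adjusted p = 0.0678). In U87DIFF the mean was 7.99-fold lower than in U87WT (-1.82, adjusted p = 7.56e-06) and 10.4-fold lower than in U87GSC (-2.13, adjusted p = 6.37e-06). The log2 values understate these ratios, because 1 is added to TPM values that are under 1 here.

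The 3 Sprouty genes summed to 156 ± 13.0 TPM in U87WT, 251 ± 9.02 in U87GSC and 59.5 ± 1.65 in U87DIFF (SD, n = 3). Behind these sums the makeup changed. SPRY2 supplied 51.3 ± 0.627% of the Sprouty TPM in U87WT, 85.3 ± 0.365% in U87GSC and 62.5 ± 1.56% in U87DIFF, and SPRY4 supplied 45.8 ± 0.470%, 12.4 ± 0.283% and 36.6 ± 1.27%. SPRY2 and SPRY4 were near parity in U87WT, and the ranges of their shares did not overlap between any of the lines.

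**Figure D1:**
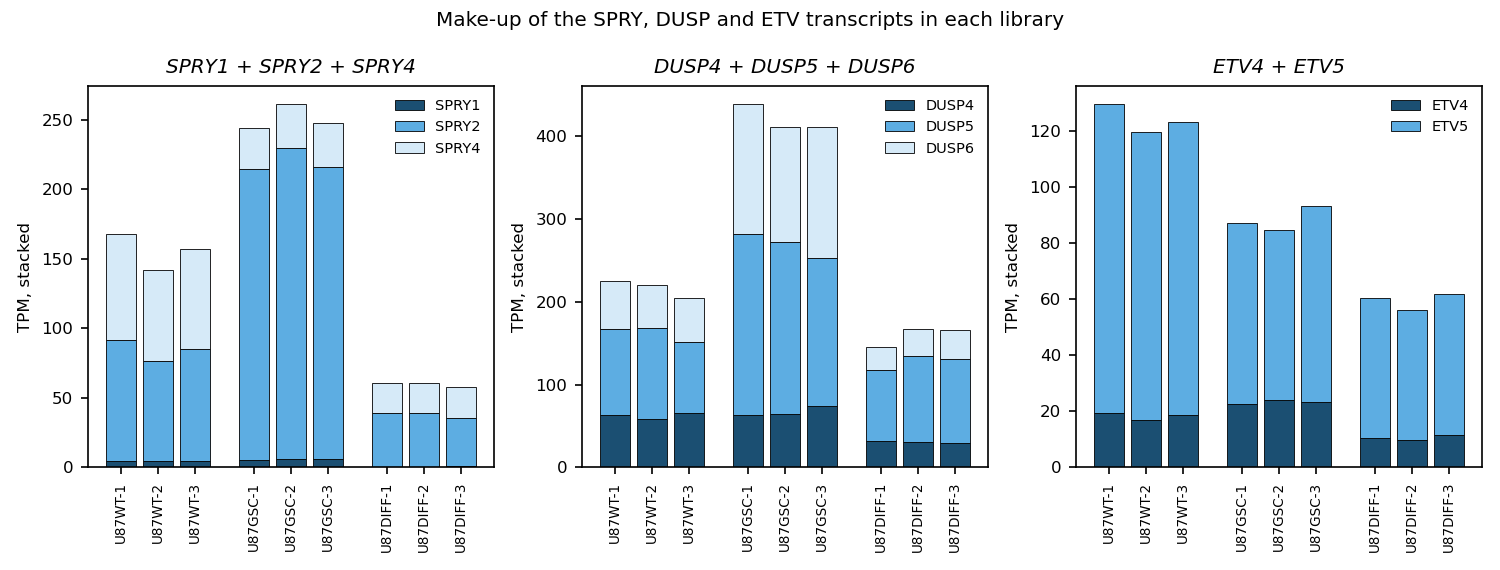
TPM of the Sprouty, DUSP and PEA3-group members, stacked by gene on a linear axis from 0, with 1 bar for each of the 9 libraries. The Sprouty bars of U87GSC are mostly SPRY2 (85.3%), and those of U87WT are shared by SPRY2 (51.3%) and SPRY4 (45.8%). The bars of ETV4 plus ETV5, which leave out ETV1, are shorter in U87GSC and U87DIFF than in U87WT.

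The SPRED genes had small changes or none that passed. SPRED1 had 36.2, 32.5 and 34.2 TPM in U87WT, 19.4, 20.8 and 26.2 in U87GSC and 21.6, 20.6 and 21.7 in U87DIFF. Both derived lines were below U87WT, by -0.62 (SE 0.104, adjusted p = 0.00114) and -0.66 (adjusted p = 0.00105) on the log2 scale. They overlapped each other (-0.04, 95% interval -0.28 to 0.20, adjusted p = 0.806). SPRED2 had 113, 111 and 114 TPM in U87WT, 105, 109 and 119 in U87GSC and 120.1, 115 and 116 in U87DIFF, and it passed in no comparison. Its log2 fold changes were -0.03 (95% interval -0.15 to 0.10), 0.05 (-0.07 to 0.17) and 0.08 (-0.04 to 0.20), for U87GSC against U87WT, U87DIFF against U87WT and U87DIFF against U87GSC. The U87DIFF libraries of SPRED2 lay just above those of U87WT.

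The 2 PEA3-group members, ETV4 and ETV5, act downstream of ERK rather than as its inhibitors, and they moved apart in the stem cells. ETV1, a PEA3-group gene outside the 10 members, passed in no comparison. Its TPM were 96.0 ± 4.43 in U87WT, 97.9 ± 8.57 in U87GSC and 105 ± 3.25 in U87DIFF (SD, n = 3). ETV5 had 109.9, 103 and 105 TPM in U87WT, 64.3, 60.5 and 69.9 in U87GSC and 49.7, 46.2 and 50.1 in U87DIFF. It fell without overlap from line to line, by -0.70 from U87WT to U87GSC (SE 0.0646, adjusted p = 3.09e-05), -1.10 from U87WT to U87DIFF (adjusted p = 3.02e-06) and -0.41 from U87GSC to U87DIFF (adjusted p = 0.00154). ETV4 had 19.4, 16.7 and 18.5 TPM in U87WT, 22.6, 24.0 and 23.3 in U87GSC and 10.6, 9.87 and 11.5 in U87DIFF. It rose in U87GSC against U87WT (0.34, SE 0.0809, adjusted p = 0.00736) and fell in U87DIFF against U87WT (-0.72, adjusted p = 0.000141) and against U87GSC (-1.06, adjusted p = 2.66e-05). ETV4 made up 14.7 ± 0.597% of the TPM of both genes in U87WT and 26.5 ± 1.78% in U87GSC (SD, n = 3). Exons of ETV4 lie opposite those of DHX8 over 1.89% of their bases, and those of ETV5 share 2.83% with DGKG.

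**Figure D2:**
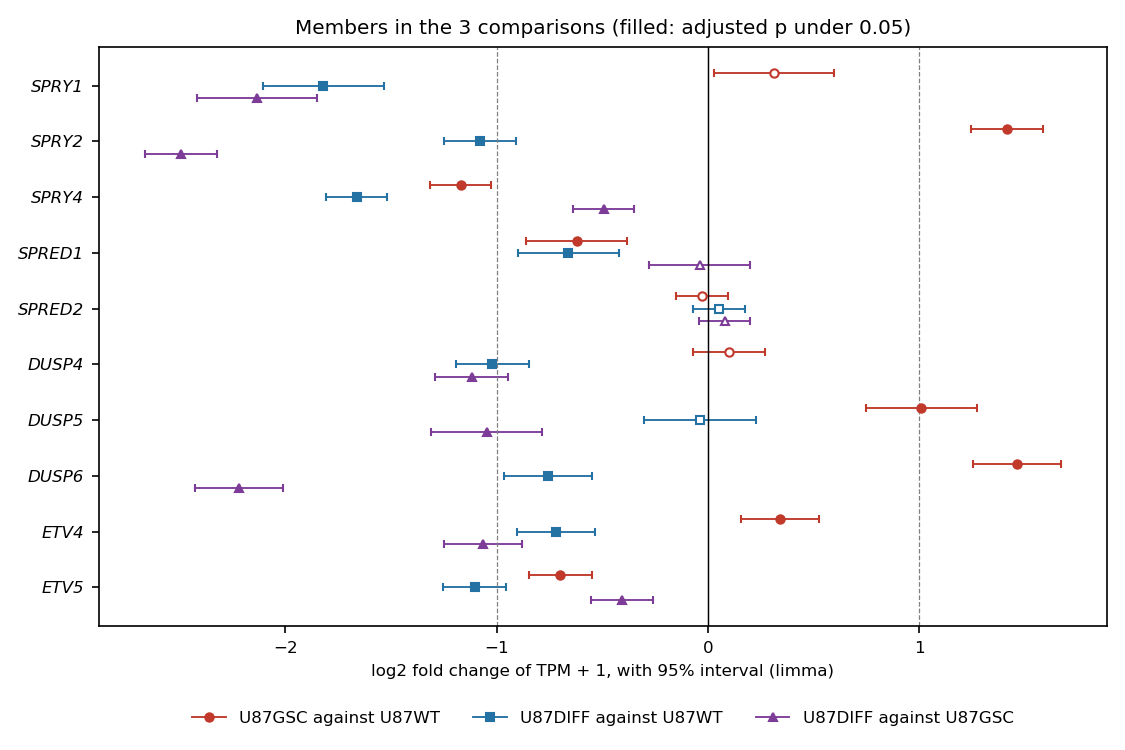
Log2 fold change of each member with its 95% interval from the limma fit, for U87GSC against U87WT, U87DIFF against U87WT and U87DIFF against U87GSC; filled markers passed at an adjusted p under 0.05 and dashed lines mark a change of 1. In U87GSC against U87WT the markers lie on both sides of 0, from -1.17 (SPRY4) to 1.46 (DUSP6), and in U87DIFF the markers that passed are all below 0.

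The sum over all 10 members was 643 ± 24.7 TPM in U87WT, 892 ± 6.03 in U87GSC and 416 ± 7.76 in U87DIFF (SD, n = 3). DUSP4, DUSP5 and DUSP6 together accounted for 217 ± 10.9, 420.2 ± 16.0 and 159 ± 12.2 TPM of these. DUSP6 supplied 25.0 ± 1.39% of the phosphatase TPM in U87WT, 36.0 ± 2.32% in U87GSC and 19.9 ± 0.722% in U87DIFF.

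Over the 9 libraries, the profile of DUSP6 was compared with that of every tested gene by the root-mean-square difference of log2 values after centring each gene on its mean. SPRY2 ranked 6th of all tested genes, with a difference of 0.191, and was the only member among the 100 most alike. DUSP5 ranked 333rd, SPRY1 443rd, ETV4 528th and DUSP4 845th, whereas SPRY4 ranked 16432nd. The 5 genes ahead of SPRY2 were CITED2, C6orf223, MTSS1, LINC01844 and OLFM2, with differences of 0.166, 0.167, 0.177, 0.181 and 0.184. CITED2, a transcriptional co-regulator, had mean TPM of 120.3 in U87WT, 338 in U87GSC and 84.3 in U87DIFF. The 3 group levels largely set such a profile, so a close match describes the order and size of the steps between the lines and nothing more.

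EGFR and FGFR1, receptors of the growth factors added to the stem cell medium, changed by less than 1 on the log2 scale in every comparison. EGFR was at 114 ± 3.96 TPM in U87WT, 134 ± 1.53 in U87GSC and 98.7 ± 1.53 in U87DIFF (SD, n = 3), with log2 fold changes of 0.23 in U87GSC (SE 0.0432, adjusted p = 0.00243) and -0.21 in U87DIFF (adjusted p = 0.00459) against U87WT. FGFR1 was at 53.0 ± 1.57, 45.7 ± 4.58 and 38.6 ± 1.40 TPM and was lower in both derived lines than in U87WT (-0.21, SE 0.0753, adjusted p = 0.0424, and -0.45, adjusted p = 0.00156). Of 8 ErbB and FGF receptors only EGFR, ERBB2 and FGFR1 reached a mean of 1 TPM, and none of the 3 was called in any comparison. All 3 passed as lower in U87DIFF against U87WT and against U87GSC, where 20.5% and 19.8% of all genes did. Against U87GSC the values were -0.44 for EGFR (limma adjusted p = 0.00012), -0.23 for FGFR1 (0.0429) and -0.68 for ERBB2 (0.00111).

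Among the ligands that the cells themselves transcribe, more passed as lower than as higher in both derived lines against U87WT. Of 12 EGF-family and FGF ligands, 10 were tested; 6 fell and 1 rose in U87GSC against U87WT, 6 fell and 1 rose in U87DIFF against U87WT, and 5 rose and 4 fell in U87DIFF against U87GSC, with medians of -0.57, -0.65 and 0.24. Over all genes, 23.3%, 20.5% and 19.8% passed as lower and 25.3%, 18.9% and 15% as higher in the same order of comparisons. TGFA, a ligand of EGFR, went from 36.0 ± 3.99 TPM in U87WT to 3.26 ± 0.933 in U87GSC and 3.17 ± 0.494 in U87DIFF. EREG, another EGFR ligand, was at 87.5 ± 9.47, 91.0 ± 20.2 and 14.8 ± 0.985 TPM, and fell in U87DIFF, by -2.48 against U87WT (SE 0.147, adjusted p = 3.21e-06) and -2.52 against U87GSC (adjusted p = 6.14e-06). The other called ligands were NRG1 (-2.37 in U87GSC and -1.40 in U87DIFF against U87WT), FGF1 (-1.39 in U87DIFF against U87WT), FGF5 (1.14 in U87GSC against U87WT and -1.02 in U87DIFF against U87GSC) and EPGN (-1.12 in U87DIFF against U87GSC). The FGF5 and EPGN calls against U87GSC were lost without U87GSC library 3, the one that stands apart, which left 1 called ligand where there had been 3.

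Within the cascade itself, few genes were called. Of 17 genes from the adaptors SHC1 and GRB2 to ERK, 8 fell and 3 rose in U87GSC against U87WT with 0 called, 4 fell and 2 rose in U87DIFF against U87WT with 2 called, and 3 fell and 4 rose in U87DIFF against U87GSC with 0 called, where 17.1%, 12.3% and 8.01% of all genes were called. Their medians were -0.19, -0.10 and 0.08. Of all genes, 23.3%, 20.5% and 19.8% passed as lower and 25.3%, 18.9% and 15% as higher in these comparisons. MAP2K1, which encodes MEK1, was at 40.0 ± 1.20 TPM in U87WT, 21.3 ± 0.462 in U87GSC and 15.9 ± 1.20 in U87DIFF (log2 fold changes -0.88 and -1.28 against U87WT, SE 0.0669); 11.5% of its exon bases lie opposite another gene. KSR1, a scaffold of the cascade, rose in both derived lines (0.90 and 1.06 against U87WT, SE 0.123) from 1.26 TPM.

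Other inhibitors differed among themselves more than they shared. Of 9, 4 rose and 3 fell in U87GSC against U87WT, 3 rose and 4 fell in U87DIFF against U87WT, and 5 fell and 0 rose in U87DIFF against U87GSC, with medians of 0.06, -0.06 and -0.25. In the same order, 25.3%, 18.9% and 15% of all genes passed as higher and 23.3%, 20.5% and 19.8% as lower. ERRFI1 (MIG6), which inhibits EGFR directly, was highest in U87WT, at 398 ± 34.0 TPM, and was at 72.6 ± 5.11 in U87GSC and 61.0 ± 2.92 in U87DIFF (log2 fold changes -2.44 and -2.68, SE 0.078, adjusted p = 7.14e-08 and 7.24e-08). LRIG1, which promotes degradation of EGFR, was at 22.4 ± 1.70, 18.1 ± 2.50 and 3.76 ± 0.0813 TPM, lower in U87DIFF than in U87WT by -2.29 (adjusted p = 9.18e-07) and 4.81-fold lower than in U87GSC (adjusted p = 4.6e-06). CBLB, a ubiquitin ligase, rose in U87GSC (1.46 against U87WT, SE 0.0719). Exons of LRIG1 lie opposite other genes over 12.9% of their bases.

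**Figure D3:**
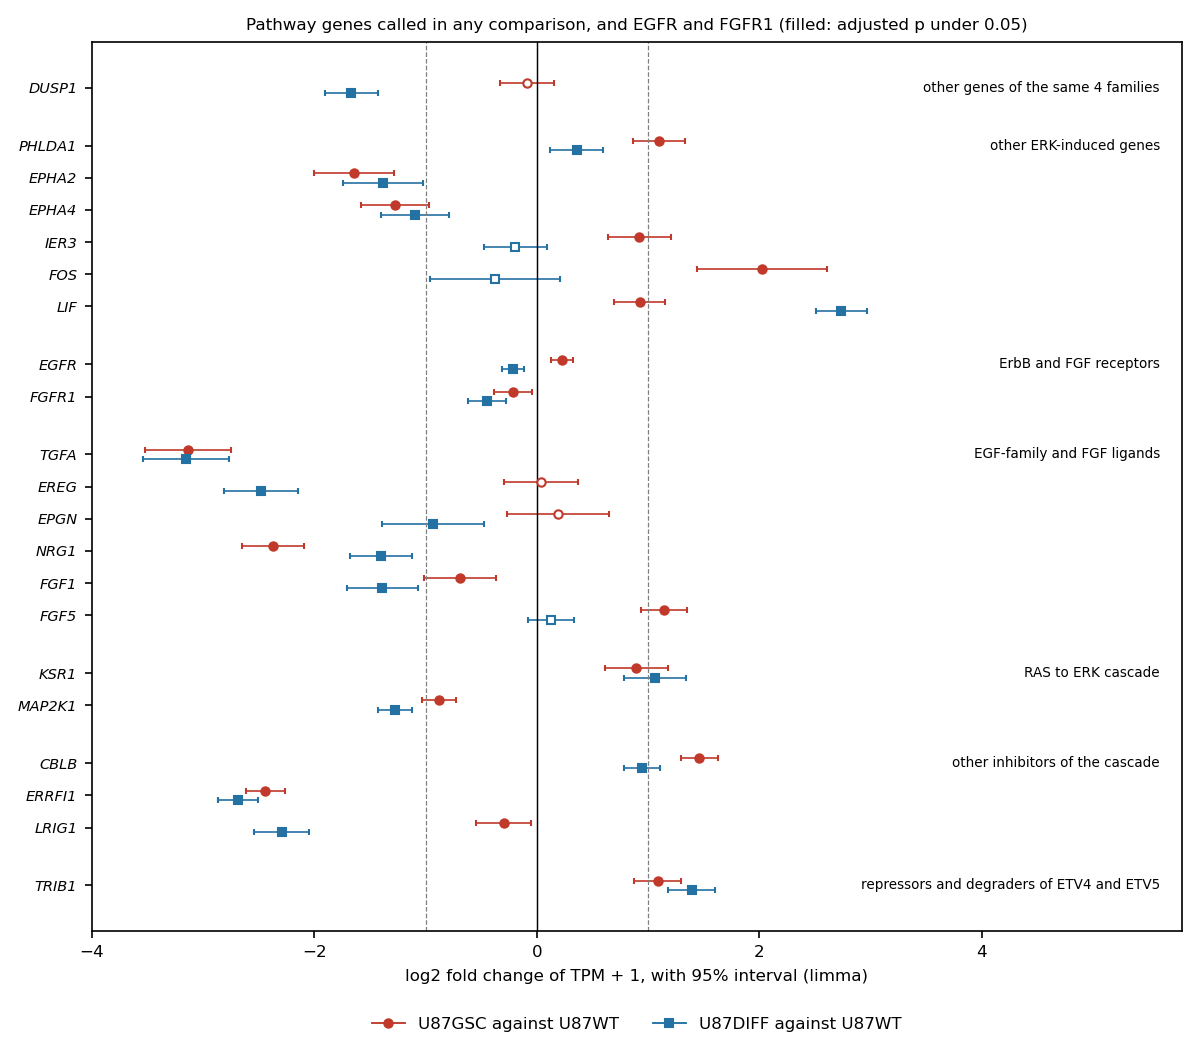
Log2 fold changes with 95% intervals (limma) of the listed pathway genes that were called in any comparison, and of EGFR and FGFR1, grouped by list, for U87GSC (circles) and U87DIFF (squares) against U87WT; filled markers passed at an adjusted p under 0.05 and dashed lines mark a change of 1. ERRFI1 (-2.44 and -2.68) and TGFA (-3.14 and -3.15) lie at the left in both comparisons, and EGFR and FGFR1 lie near 0.

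Other genes that ERK is known to induce moved in part like the members. Of 14, 8 rose and 3 fell in U87GSC against U87WT, 5 rose and 5 fell in U87DIFF against U87WT, and 2 rose and 8 fell in U87DIFF against U87GSC, with medians of 0.72, -0.03 and -0.48. Over all genes, 25.3%, 18.9% and 15% passed as higher and 23.3%, 20.5% and 19.8% as lower in the same order. FOS, the immediate-early AP-1 gene, had 7.53, 7.65 and 5.01 TPM in U87WT, 31.8, 40.5 and 20.9 in U87GSC and 3.65, 5.32 and 5.93 in U87DIFF (log2 fold change 2.02 in U87GSC against U87WT, SE 0.257, adjusted p = 0.00022, and -2.40 in U87DIFF against U87GSC, adjusted p = 0.000187). PHLDA1 rose in U87GSC (1.10 against U87WT, SE 0.103), and IER3 fell in U87DIFF against U87GSC (-1.11, SE 0.123). Without U87GSC library 3, PHLDA1 was no longer called in U87GSC against U87WT and IER3, LIF and MYC were, so that the called genes of this list went from 4 to 6. Exons of PHLDA1 (16.5% of bases) and IER3 (26.5%) lie opposite other genes. The ephrin receptors EPHA2 and EPHA4 fell in both derived lines against U87WT (EPHA2 by -1.65 in U87GSC and -1.39 in U87DIFF, EPHA4 by -1.27 and -1.10). LIF, a cytokine, went the other way from the members in U87DIFF, at 11.8 ± 1.42, 23.2 ± 2.45 and 83.6 ± 1.94 TPM in U87WT, U87GSC and U87DIFF.

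Of 10 further genes of the same families, 6 were tested. Among these, 1 rose and 2 fell in U87GSC against U87WT, 1 rose and 4 fell in U87DIFF against U87WT, and 1 rose and 3 fell in U87DIFF against U87GSC, with medians of -0.14, -0.42 and -0.17. The shares over all genes were 25.3%, 18.9% and 15% as higher and 23.3%, 20.5% and 19.8% as lower. DUSP1, a stress-induced nuclear phosphatase, had 104 ± 9.98 TPM in U87WT, 97.7 ± 2.07 in U87GSC and 32.3 ± 4.93 in U87DIFF (log2 fold change -0.09 in U87GSC, SE 0.106, adjusted p = 0.526, and -1.67 in U87DIFF, adjusted p = 4.84e-06, both against U87WT).

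The listed repressors and degraders of ETV4 and ETV5, a list that includes adaptors of a degrading ligase, did not share one direction. Of 8, 7 were tested. Among these, 2 rose and 3 fell in U87GSC against U87WT, 2 rose and 1 fell in U87DIFF against U87WT, and 3 rose and 1 fell in U87DIFF against U87GSC, with medians of -0.03, 0.11 and 0.19. Across all genes, 25.3%, 18.9% and 15% passed as higher and 23.3%, 20.5% and 19.8% as lower. The mRNA of CIC itself was at 91.7 ± 2.23, 90.4 ± 13.9 and 99.0 ± 4.43 TPM in U87WT, U87GSC and U87DIFF and passed in no comparison. In both comparisons with U87WT, the 2 listed genes that rose were TRIB1 and TRIB2. Both were listed as adaptors of COP1, a ubiquitin ligase that degrades PEA3 factors. On the log2 scale TRIB1 rose by 1.09 (SE 0.0918) in U87GSC and 1.39 in U87DIFF, and TRIB2 by 0.73 and 0.24. Whether either acts on ETV4 or ETV5 was not tested.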

How the data were processed

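The authors deposited 1 table of log2(TPM + 1) values for 60606 genes and 9 libraries. The sample records describe rRNA-depleted directional libraries sequenced as pairs, whereas the published methods describe oligo(dT) enrichment. The submitters' processing notes name FastQC 0.11.9, Trimmomatic 0.39, HISAT2 2.2.1, featureCounts 2.0.5, R 4.2.0 and GRCh38; annotation and strand setting are not given in the sources used here. Back-transformed values summed to 1000000 in each library, so depth had been divided out. That gene length was divided out too rests on the TPM label. A larger share of 1 abundant RNA lowers the TPM of every other gene.

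Genes with a mean TPM over 1 entered 1 model of the 3 lines (limma 3.58.1 under R 4.3.3, functions lmFit and eBayes, trend on), with Benjamini-Hochberg adjustment within each comparison; count tests could not be used. Thresholds were an adjusted p of 0.05 and an absolute log2 fold change of 1. The fit was tested on simulated data. Intervals are 95%. Levels are mean ± SD of TPM. Promoters, positions and neighbour order came from RefSeq GRCh38.p14 (39403 genes placed), and exon overlaps from GENCODE 29. Named were all members, every listed pathway gene called in a comparison, EGFR and FGFR1, and the 5 genes most like DUSP6. ETV1, TRIB2, CIC and MYC were added after their values were seen. The members and gene lists were chosen with earlier results of these data known. The alternatives were another pseudocount (0.1), filter (mean TPM over 5, or none), scaling, variance model and replicate block, and each library left out in turn, 18 per comparison. Python 3.11.15 was used with numpy 2.4.6 and pandas 2.3.3 for tables and matplotlib 3.10.9 for plots.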

Additional observations from a re-analysis of the deposited data

Results flagged for a closer look

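For 3 members both derived lines passed the test against U87WT in opposite directions, higher in U87GSC and lower in U87DIFF, with every library of one line above and every library of the other below the parental range. Members picked this way must be lower in U87DIFF than in U87GSC, so the p-values of that comparison add no support. The limma difference between the derived lines (U87DIFF against U87GSC) is given for its size. It was -2.49 on the log2 scale for SPRY2 (adjusted p = 3.90e-07), -2.22 for DUSP6 (adjusted p = 1.41e-06) and -1.06 for ETV4 (adjusted p = 2.66e-05). U87WT is the shared control of both effects. SPRY1 had the same layout of libraries, but its difference between U87GSC and U87WT did not pass (0.31, limma adjusted p = 0.0678).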

How the results depend on the processing

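Of 537 fold changes of members recomputed under 18 alternatives per comparison, 525 kept their direction and their side of the test, 9 changed sign and 3 passed where they had not. All 9 sign changes were of values near 0. SPRED2 in U87GSC against U87WT became 0.00587 with quantile normalization (-0.0774 to 0.0101 with 1 library left out). DUSP5 in U87DIFF against U87WT became 0.00922 when TPM were rescaled after removing RN7SL1 and mitochondrial genes (-0.14 to 0.0468 with 1 library left out; 0.0371 without U87WT library 2). SPRED1 in U87DIFF against U87GSC became 0.0130 (quantile), 0.0145 (median-ratio scaling) and 0.0218 (rescaled), and lay between -0.13 and 0.0833 with 1 library left out. SPRY1 in U87GSC against U87WT passed without the trend (limma adjusted p = 0.0275), and SPRED2 in U87DIFF against U87GSC passed with median-ratio scaling (0.13, limma adjusted p = 0.0416) and without U87GSC library 3 (0.13, limma adjusted p = 0.0296); the cause was not tested. The members called numbered 3 to 4, 4 to 5 and 5 to 6 in the 3 comparisons. Calls of DUSP5 and DUSP4 were also lost with median-ratio scaling and the rescaled TPM (values between 0.98 and 1.00 in size), that of ETV4 in U87DIFF against U87GSC with quantile normalization (-0.98), and SPRY1 was not tested at a mean TPM over 5. With a pseudocount of 0.1, SPRY1 in U87DIFF moved to -2.82 against U87WT and -3.19 against U87GSC. Over all genes, calls numbered 3908, 2812 and 1836, and 2254, 1583 and 1038 at a mean TPM over 5, where fewer genes were tested. Called ligands rose from 3 to 5 in U87GSC against U87WT and from 3 to 6 in U87DIFF against U87GSC with a pseudocount of 0.1; they rose from 4 to 6 in U87DIFF against U87WT with it, and numbered 1 in U87DIFF against U87GSC without U87GSC library 3. Called ERK-induced genes rose from 4 to 6 in U87GSC against U87WT without that library, and the remaining lists moved by at most 1 gene under any alternative. Same-numbered libraries of different lines showed no shared deviation (correlations -0.0416 to 0.0489). With 3 libraries per line this cannot decide whether they were handled together. With a replicate block the called members stayed at 4, 5 and 6 and the calls over all genes were 3917, 2810 and 1831. Depth is unknown, so the precision of low values such as SPRY1 in U87DIFF rests on 3 libraries.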
